A study of Homo sapiens with 6 samples.

Results

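The 10 aldehyde dehydrogenase genes described here, ALDH1A1, ALDH1A2, ALDH1A3, ALDH2, ALDH1B1, ALDH1L2, ALDH3A2, ALDH3B1, ALDH7A1 and ALDH18A1, were taken by symbol from a table of read counts for 25343 genes. They belong to a family of 19 genes in the table. RNA was sequenced from A375, an established human melanoma cell line, after 24 h with 50 nM panobinostat, an inhibitor of histone deacetylases, or with the same volume of PBS (vehicle). Each group had 3 libraries of the parental cells. The labels do not say whether replicates came from separate cultures, so each p-value reflects library-to-library spread that could be purely technical. Bulk RNA cannot tell fewer expressing cells from less RNA per cell.

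Aldehyde dehydrogenases oxidise aldehydes to carboxylic acids with NAD or NADP as the acceptor of electrons. The ALDH1A enzymes make retinoic acid from retinaldehyde, and ALDH1A activity is used widely to mark tumour cells with stem-like behaviour, in melanoma among others. Other members work in mitochondria on acetaldehyde, formyl-folate, lysine breakdown or proline synthesis, or at membranes on fatty aldehydes.

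ALDH1A3, the main retinaldehyde dehydrogenase transcript in these cells, fell to 11.5% of its vehicle level with panobinostat. ALDH1L2, ALDH3B1 and ALDH18A1 fell to 25.3%, 43.9% and 58.6%, and ALDH1B1 to 83.6%. ALDH2, ALDH3A2 and ALDH7A1 did not pass the test, and ALDH1A1 and ALDH1A2 had too few reads to enter it. Of the 8 genes tested, 5 were lower, 0 were higher and 3 did not pass at an adjusted p of 0.05 (edgeR's quasi-likelihood test, Benjamini-Hochberg adjustment over 15499 genes). Of all genes tested, 82.8% were called, 41.8% higher and 41.0% lower, so a call by itself says little here, and the size of each change is set against all genes below. Of the 8, 3 were at least 2-fold lower, against 11.7% of all genes tested. Levels are CPM, read counts scaled by library size, given per library or as mean ± SD (n = 3 per group), and each log2 fold change, panobinostat over vehicle, has its SE.

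Library totals were 32293283 to 36201208 counts with panobinostat and 34738362 to 38944399 in vehicle, and 3 counts were worth 0.0774 to 0.0928 CPM. Of 10 markers of the melanocyte lineage, MLANA and TYR had 0 counts in the 6 libraries, while SOX10, which specifies the lineage, averaged 368 CPM with panobinostat and 813 CPM in vehicle. MITF, PAX3, S100B and MC1R also averaged lower with panobinostat, whereas PMEL, a pigment granule protein, averaged 194 CPM with panobinostat and 0.628 CPM in vehicle. TYRP1 and DCT were also higher with panobinostat, at low counts. TYRP1 had 47 counts with panobinostat and 26 in vehicle, and DCT had 31 and 12. The 10 markers summed to 596 to 657 CPM with panobinostat and 912 to 1024 CPM in vehicle. With panobinostat the 5 leukocyte markers summed to 3.58 to 3.90 CPM, the 4 endothelial markers to 18.4 to 18.8 CPM, the 4 epithelial markers to 325 to 344 CPM and the 3 hepatocyte markers to 19.2 to 20.6 CPM. In vehicle the leukocyte markers summed to 4.96 to 6.17 CPM, the endothelial markers to 9.06 to 10.4 CPM, the epithelial markers to 166 to 174 CPM and the hepatocyte markers to 5.81 to 6.84 CPM. Single genes carried these sums, given here with panobinostat and then in vehicle. KRT18 averaged 302 and 158 CPM and KRT8 30.8 and 13.2 CPM, while EPCAM averaged 0.690 and 0.0624 CPM and CDH1 had 7 and 0 counts. SERPINA1 averaged 20.0 and 6.27 CPM, while ALB had 3 and 2 counts and APOA1 1 and 2. KDR averaged 13.4 and 7.90 CPM, and LYZ 3.02 and 5.17 CPM. The part of these markers in the results was not tested.

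The windows before the transcription start were read for 8 of the 10 genes from RefSeq (GRCh38.p14), 11 windows in all, and 4 are shown because they belong to the gene that fell most (ALDH1A3), to one that fell less (ALDH18A1), to one that did not pass (ALDH7A1) and to a retinaldehyde dehydrogenase barely detected (ALDH1A1). Each is the 250 bases before the start, in the direction of transcription, at chr15:100879581-100879830 on the plus strand for ALDH1A3, chr10:95656712-95656961 on the minus strand for ALDH18A1, chr5:126595220-126595469 on the minus strand for ALDH7A1 and chr9:72953054-72953303 on the minus strand for ALDH1A1. Capitals mark every match, on either strand, to the GC box motif GGGCGG, the CCAAT box or the E-box motif CACGTG, and matches of 1 motif may overlap.
ALDH1A3: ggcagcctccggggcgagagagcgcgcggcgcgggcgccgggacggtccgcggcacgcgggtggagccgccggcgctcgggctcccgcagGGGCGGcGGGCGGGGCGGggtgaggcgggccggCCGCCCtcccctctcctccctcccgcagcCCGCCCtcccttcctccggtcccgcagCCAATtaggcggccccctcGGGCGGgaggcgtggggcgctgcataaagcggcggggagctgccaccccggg
ALDH18A1: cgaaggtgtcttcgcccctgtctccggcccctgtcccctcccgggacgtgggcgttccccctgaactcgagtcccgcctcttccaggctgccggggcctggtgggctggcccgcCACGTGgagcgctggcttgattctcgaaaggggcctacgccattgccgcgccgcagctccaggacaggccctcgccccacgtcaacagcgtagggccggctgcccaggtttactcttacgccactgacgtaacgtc
ALDH7A1: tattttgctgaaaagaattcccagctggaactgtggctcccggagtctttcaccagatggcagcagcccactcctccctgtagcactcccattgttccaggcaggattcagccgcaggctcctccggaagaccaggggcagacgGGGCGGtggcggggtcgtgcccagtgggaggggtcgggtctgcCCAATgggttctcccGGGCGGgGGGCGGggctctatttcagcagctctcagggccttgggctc
ALDH1A1: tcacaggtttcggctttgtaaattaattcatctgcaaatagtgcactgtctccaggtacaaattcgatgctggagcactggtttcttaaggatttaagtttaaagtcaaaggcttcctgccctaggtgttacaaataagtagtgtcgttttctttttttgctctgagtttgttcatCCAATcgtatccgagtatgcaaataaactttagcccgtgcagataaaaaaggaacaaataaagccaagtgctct

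The ALDH1A3 window held 6 GC boxes and 1 CCAAT box, and 82.4% of its bases were G or C. As many or more GC boxes were found in 2.22% of the 35116 windows of this length in the RefSeq table. G and C content as high was found in 1.44% of those windows, whose median was 58.0%. The ALDH7A1 window held 3 GC boxes and 1 CCAAT box, the ALDH18A1 window 1 E-box and the ALDH1A1 window 1 CCAAT box in 38.4% G and C. GC boxes were present in 42.6%, CCAAT boxes in 32.0% and E-boxes in 6.34% of all windows. A TATA box (TATAAA, 10.7% of all windows), an AP-1 motif (TGANTCA, 6.57%), a cyclic AMP response element (TGACGTCA, 1.65%) and a C/EBP-ATF element (TGATGNAA, 3.14%), searched on both strands, were in none of the 11 windows. GC boxes stood in the window of the gene that fell most and also in windows of ALDH7A1 and ALDH3A2, which did not pass. Over the 11 windows, GC boxes stood in 6, CCAAT boxes in 6 and E-boxes in 2. A match describes letters, not binding.

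Among the retinaldehyde dehydrogenases ALDH1A3 alone had enough reads to test. ALDH1A3, which oxidises retinaldehyde to retinoic acid, stood at 185, 172 and 182 CPM in the panobinostat libraries, against 1564, 1563 and 1578 CPM in the vehicle libraries. The groups lay far apart, and the libraries within each were close to one another. The log2 fold change was -3.12 ± 0.04, 8.72-fold lower than in vehicle (edgeR adjusted p = 8.97e-20). Of the 15499 genes tested, 89 (0.574%) had a lower log2 fold change. Its reads made up 0.0174% to 0.0186% of a panobinostat library and 0.155% to 0.156% of a vehicle library. The gene lies on chromosome 15 at positions 100877714 to 100916626 (GRCh38, GENCODE 29, plus strand), and 27.5% of its merged exon bases are shared with AC015712.2, an antisense RNA. Whether counting used strand is unknown from the sources, so reads of that RNA cannot be told apart from those of ALDH1A3.

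ALDH1A1 and ALDH1A2, which catalyse the same step in other tissues, were near the limit of detection. ALDH1A1 had 8, 10 and 9 counts in the panobinostat libraries, against 2, 4 and 2 counts in the vehicle libraries. ALDH1A2 had 4, 6 and 8 counts in the panobinostat libraries, against 0, 1 and 1 counts in the vehicle libraries. The groups overlapped for neither gene, as for 83.4% of all genes tested, and neither gene reached the count filter. The ratio of panobinostat to vehicle was 3.59 (95% interval 1.59 to 9.15) for ALDH1A1 and 9.58 (2.29 to 85.1) for ALDH1A2, with exact conditional intervals that cover counting error only. A two-sided exact permutation test over the libraries gave p = 0.1 for each, the smallest p that 3 against 3 allows. With no filter on low counts both were called higher by edgeR (adjusted p = 0.0065 for ALDH1A1 and 0.00274 for ALDH1A2). Per kilobase of merged exons (GENCODE 29) ALDH1A1 and ALDH1A2 averaged 0.0904 and 0.0202 CPM with panobinostat, where ALDH1A3 stood at 31.2 CPM.

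**Figure D1:**
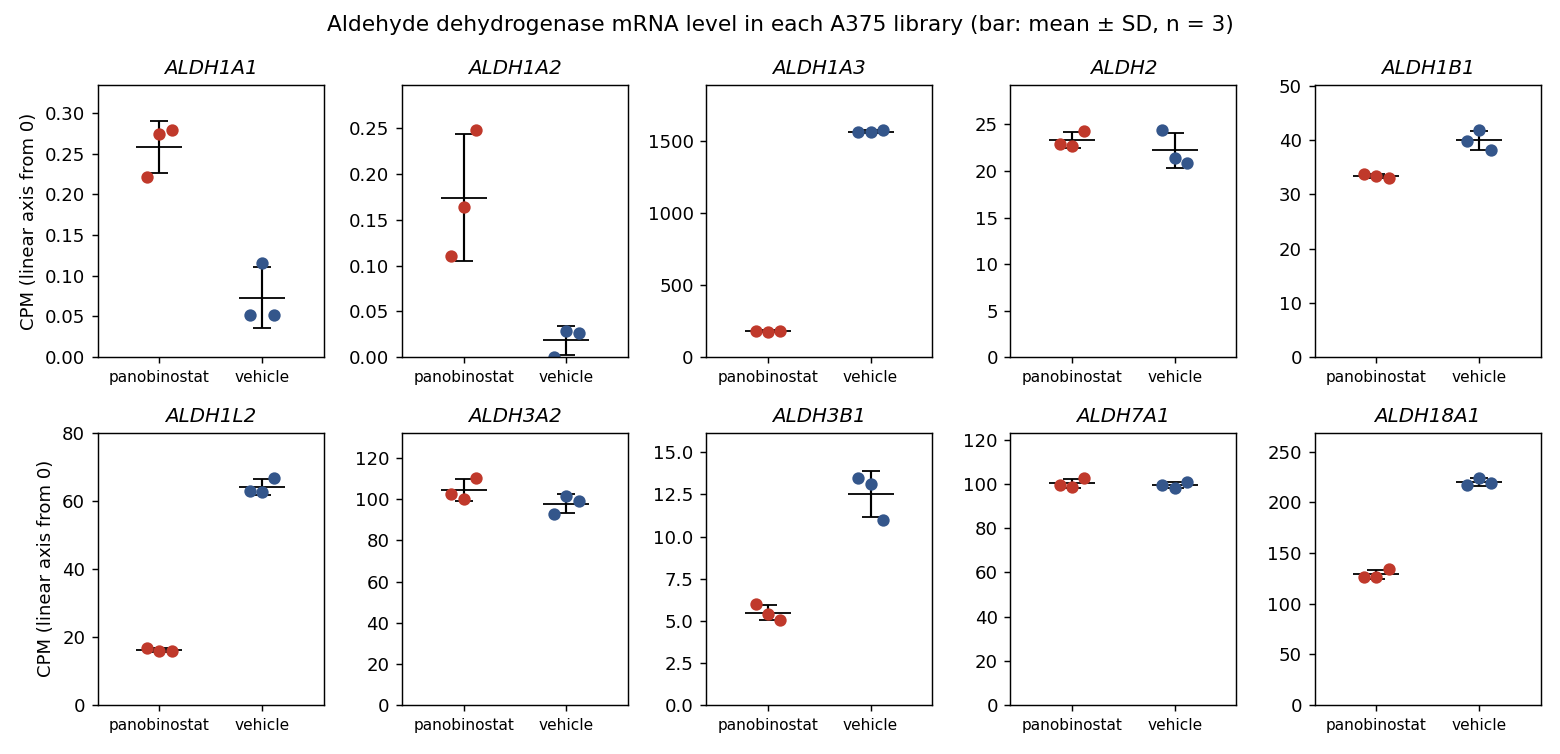
Level of each of the 10 genes in CPM (linear axes from 0, one scale per gene) in the 3 panobinostat and the 3 vehicle libraries, with a line and bar for mean ± SD. ALDH1A3 sits at 172 to 185 CPM with panobinostat and at 1563 to 1578 CPM in vehicle, while the points of ALDH2, ALDH3A2 and ALDH7A1 overlap between the groups.

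The mitochondrial acetaldehyde enzymes ALDH2 and ALDH1B1 changed little. ALDH2, which clears acetaldehyde made from ethanol, stood at 22.9, 22.7 and 24.3 CPM in the panobinostat libraries, against 24.4, 21.4 and 20.9 CPM in the vehicle libraries. These ranges overlapped, and the log2 difference of 0.07 ± 0.07 did not pass (edgeR adjusted p = 0.365, 95% interval -0.08 to 0.21). ALDH1B1, its close relative, stood at 33.7, 33.4 and 33.0 CPM in the panobinostat libraries, against 39.8, 41.8 and 38.3 CPM in the vehicle libraries. Every panobinostat library was below every vehicle library, with a log2 fold change of -0.26 ± 0.05 (edgeR adjusted p = 0.000231), exceeded in size by 75.03% of all genes tested. With upper quartile scaling, which moved the median of all genes up by 0.12 on the log2 scale, the change of ALDH1B1 was -0.14 and still passed. ALDH2 passed as higher under that scaling and with only genes at 5 CPM or more tested, at 0.19 and 0.16. The 5 CPM filter, with scaling recomputed on the genes kept, raised all 8 tested genes, ALDH1A3 from -3.12 to -3.03.

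ALDH1L2, the mitochondrial enzyme that oxidises formyl-tetrahydrofolate to carbon dioxide and tetrahydrofolate, had the next largest change after ALDH1A3 among the 8 tested genes. It stood at 16.9, 15.9 and 15.9 CPM in the panobinostat libraries, against 63.1, 62.6 and 66.8 CPM in the vehicle libraries. The groups did not overlap. Its log2 fold change was -1.98 ± 0.06, 3.95-fold lower than in vehicle (edgeR adjusted p = 1.89e-15), and 2.97% of all genes tested had a lower log2 fold change. ALDH1L1, the cytosolic relative, had 6 counts over the panobinostat libraries and 14 over the vehicle libraries and was not tested.

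The enzymes of fatty aldehydes differed from each other. ALDH3A2, the microsomal fatty aldehyde dehydrogenase whose loss causes Sjogren-Larsson syndrome, stood at 102, 100.3 and 110.3 CPM in the panobinostat libraries, against 93.0, 102 and 99.0 CPM in the vehicle libraries. The ranges overlapped, and the log2 difference of 0.09 ± 0.05 did not pass (edgeR adjusted p = 0.0828, 95% interval -0.01 to 0.19). It passed as higher with RLE scaling (0.11), library size alone (0.11), upper quartile scaling (0.21) and the 5 CPM filter (0.19). ALDH3B1, a membrane-bound enzyme that acts on aldehydes from lipid peroxidation, stood at 5.97, 5.42 and 5.07 CPM in the panobinostat libraries, against 13.5, 13.1 and 10.96 CPM in the vehicle libraries. All 3 panobinostat libraries were below all vehicle libraries, with a log2 fold change of -1.19 ± 0.10 (edgeR adjusted p = 4.08e-09) and the widest SE of the 8. ALDH3A1 had 0 counts with panobinostat and 1 count in vehicle, and ALDH3B2 had 7 counts with panobinostat and 0 in vehicle, too few for either to be tested.

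ALDH7A1, antiquitin, which acts in lysine breakdown and on betaine aldehyde, stood at 99.4, 98.6 and 102.6 CPM in the panobinostat libraries, against 99.6, 98.1 and 100.6 CPM in the vehicle libraries. The 6 libraries were nearly level, with a log2 difference of 0.01 ± 0.04 (edgeR adjusted p = 0.804) and a 95% interval of -0.07 to 0.09. That difference is smaller than those of 98.8% of all genes tested. Upper quartile scaling (0.13) and the 5 CPM filter (0.11) each made it pass as higher. GENCODE 29 names 4 pseudogenes of ALDH7A1, whose reads may be shared with it.

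**Figure D2:**
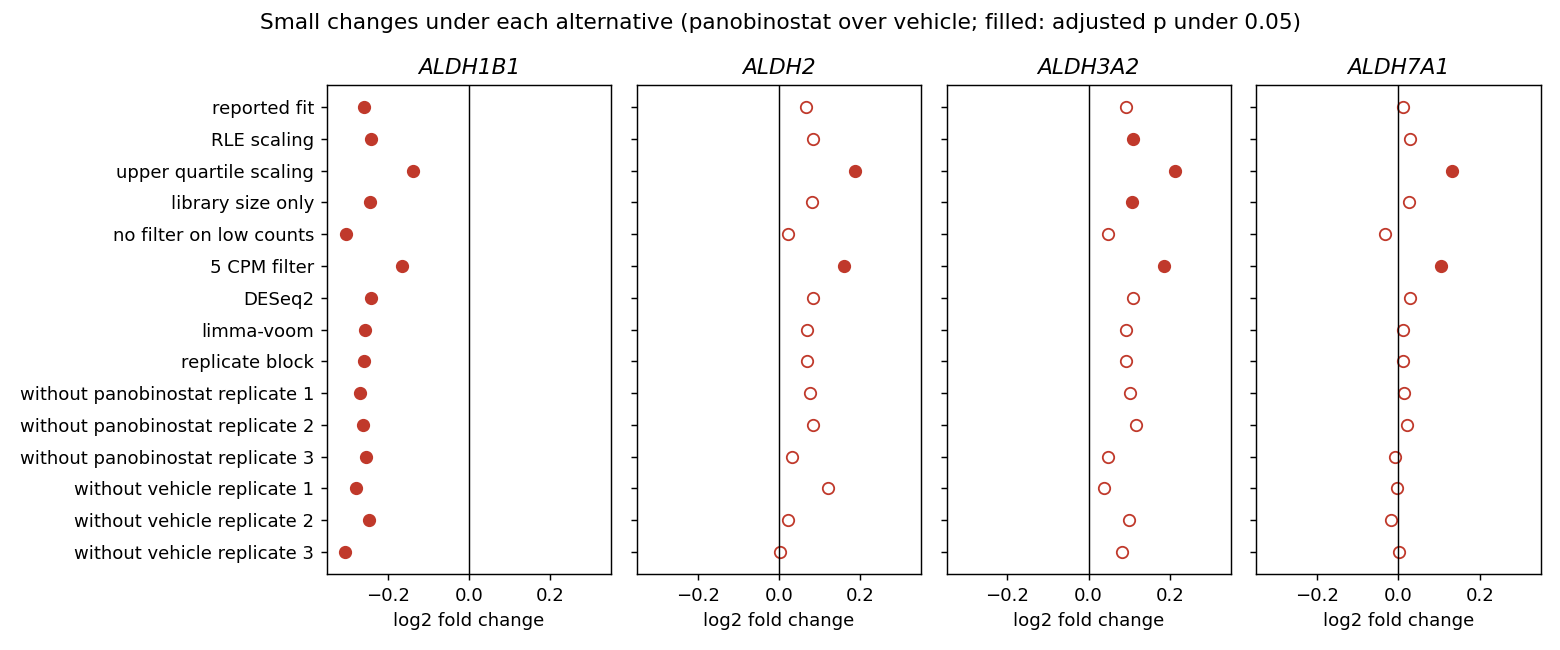
Log2 fold change, panobinostat over vehicle, of the 4 genes with the smallest changes in the reported fit and in 14 alternatives, filled where the adjusted p is under 0.05. ALDH1B1 is filled and below 0 throughout, while ALDH2, ALDH3A2 and ALDH7A1 are filled only under some scalings and the 5 CPM filter, on the higher side.

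ALDH18A1, the mitochondrial synthase that makes pyrroline-5-carboxylate from glutamate on the way to proline, stood at 126, 126 and 134 CPM in the panobinostat libraries, against 217, 224 and 219 CPM in the vehicle libraries. The groups were well apart, with a log2 fold change of -0.77 ± 0.04, 1.71-fold lower than in vehicle (edgeR adjusted p = 5.63e-12). Of all genes tested 16.8% had a lower log2 fold change.

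**Figure D3:**
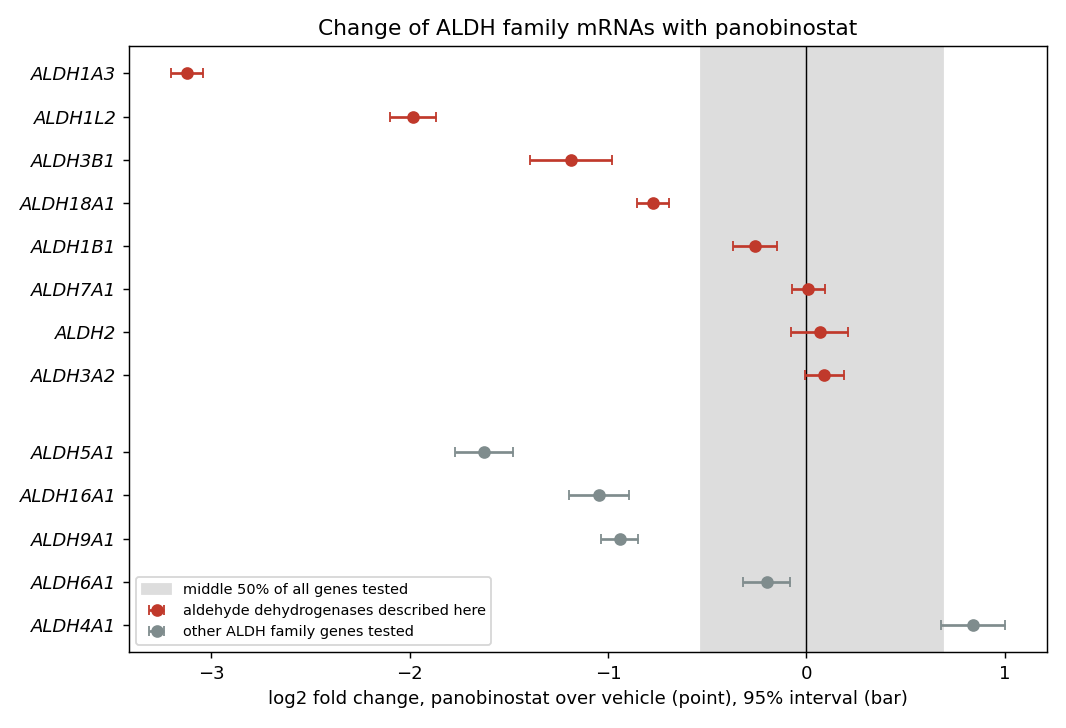
Log2 fold change, panobinostat over vehicle, with 95% intervals for the 8 tested genes (red) and for the 5 tested genes among the rest of the family (grey), with the middle 50% of all genes tested shaded. ALDH1A3, ALDH1L2, ALDH3B1 and ALDH18A1 lie left of the shaded band, which runs from -0.53 to 0.69.

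**Figure D4:**
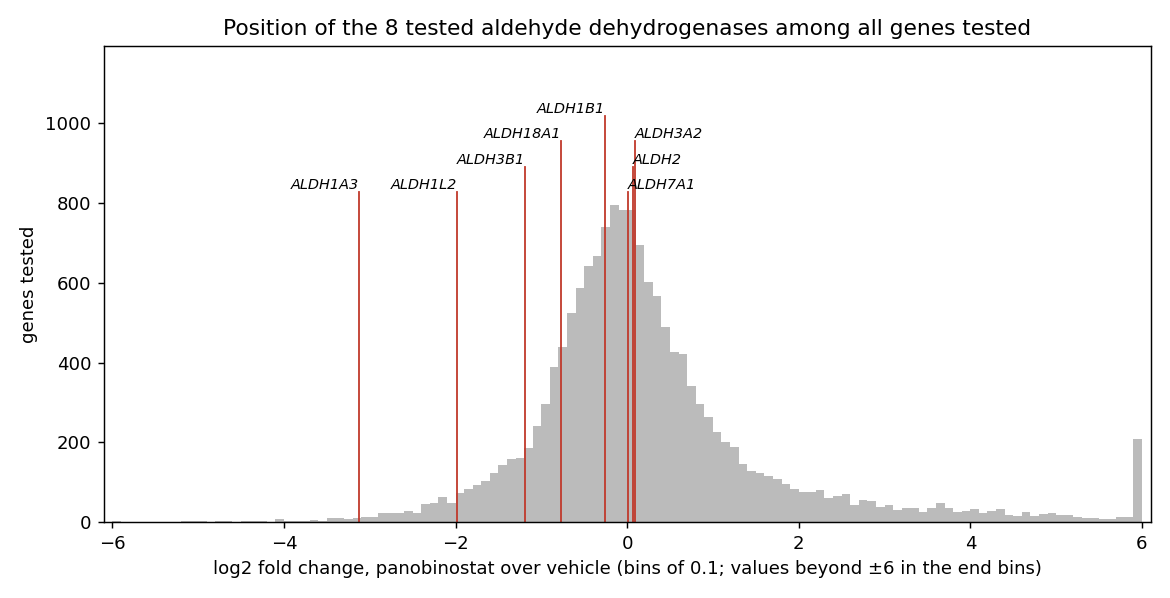
Number of genes tested per bin of log2 fold change, panobinostat over vehicle, with lines at the 8 tested aldehyde dehydrogenases. ALDH1A3 at -3.12 stands in the left tail, past which lie 89 of 15499 genes, and ALDH7A1, ALDH2 and ALDH3A2 stand near the middle.

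The reads of the 10 genes together made up 592 ± 16.4 CPM with panobinostat and 2124 ± 9.12 CPM in vehicle (SD, n = 3 each). Without ALDH1A3 the sums were 412 ± 12.1 CPM with panobinostat and 556 ± 6.23 CPM in vehicle. ALDH1A3 gave 30.4% ± 0.718 of the reads of the 10 genes with panobinostat and 73.8% ± 0.256 in vehicle. The shares of ALDH7A1 were 16.8% to 17.2% with panobinostat and 4.62% to 4.72% in vehicle, and those of ALDH3A2 were 17.3% to 18.1% with panobinostat and 4.40% to 4.78% in vehicle, while their levels in CPM did not pass the test.

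Per kilobase of merged GENCODE 29 exons, which may not be the gene models the authors counted, ALDH1A3 stood at 31.2 ± 1.15 CPM with panobinostat and 272 ± 1.39 CPM in vehicle. ALDH18A1 stood at 34.2 ± 1.21 CPM per kilobase with panobinostat and 58.4 ± 0.95 in vehicle. In vehicle ALDH1A3 ranked highest of the 19 family genes with either length used. With panobinostat ALDH18A1 and ALDH1A3 held the upper places, and their order turned round with the longest coding transcript as length (38.3 for ALDH18A1 and 45.9 for ALDH1A3). Next among the 10 came ALDH3A2, at 16.2 ± 0.818 CPM per kilobase with panobinostat and 15.2 ± 0.687 in vehicle, and ALDH1B1, at 10.6 ± 0.113 with panobinostat and 12.7 ± 0.563 in vehicle. ALDH7A1 stood at 5.58 ± 0.117 with panobinostat and 5.53 ± 0.0707 in vehicle, or 20.2 with panobinostat and 20.0 in vehicle over the longest coding transcript, so its place depends on the length taken. With panobinostat ALDH2, ALDH1L2 and ALDH3B1 followed at 2.40, 1.91 and 0.828 CPM per kilobase of merged exons. In vehicle ALDH1L2, at 7.54, stood above ALDH2, at 2.29, and ALDH3B1, at 1.89.

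**Figure D5:**
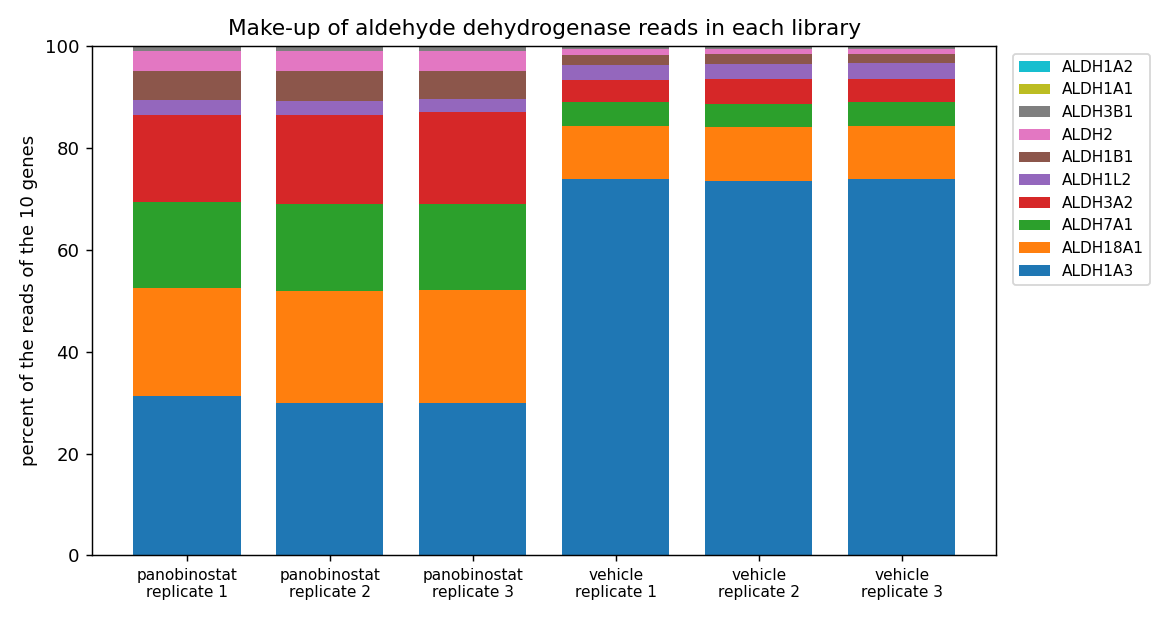
Percent of the reads of the 10 genes that each gene gave in the 3 panobinostat and the 3 vehicle libraries, as counts not divided by gene length. The ALDH1A3 part is 30.0% to 31.2% of each panobinostat bar and 73.5% to 74.0% of each vehicle bar.

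Of the other 9 family genes 5 were tested, of which 1 rose and 4 fell. These were 20% and 80%, beside 41.8% and 41.0% of all genes tested. ALDH4A1, which turns pyrroline-5-carboxylate into glutamate in proline breakdown, rose by 0.84 ± 0.08 on the log2 scale to 27.4 ± 1.17 CPM with panobinostat, against 15.3 ± 1.75 CPM in vehicle (edgeR adjusted p = 1.63e-08). A further annotated gene, AL080251.1 on the same strand, covers 41.1% of the merged exon bases of ALDH4A1. ALDH5A1, succinate semialdehyde dehydrogenase of GABA breakdown, fell by 1.62 ± 0.07 to 9.95 ± 0.83 CPM with panobinostat, against 30.6 ± 0.528 CPM in vehicle. ALDH9A1, which acts in carnitine synthesis, fell by 0.94 ± 0.04, and ALDH16A1 fell by 1.05 ± 0.07. ALDH6A1, an enzyme of valine breakdown, fell by 0.20 ± 0.06, which did not pass under upper quartile scaling (-0.08) or the 5 CPM filter (-0.10). ALDH8A1 had 34 counts over the panobinostat libraries and 2 over the vehicle libraries, a ratio of 18.1 (95% interval 4.64 to 155, counting error only), and was not tested.

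Genes of retinoid metabolism and the retinoid receptors, the pathway around ALDH1A3, split: of 19 tested, 9 rose, 6 fell and 4 did not pass. The shares that rose and fell were 47.4% and 31.6%, beside 41.8% and 41.0% of all genes tested. The median log2 fold change was 0.07 beside 0.01 for all genes tested. RDH13, among the 9, lost its call in 9 of the 14 alternatives, and RXRB, among the 6, in 10. RDH12 and SDR16C5, among the 9, had vehicle means under the count filter and entered the test through their panobinostat levels, and with the 5 CPM filter 7 of 13 rose and 3 fell. CYP26B1, which degrades retinoic acid, rose by 3.03 ± 0.08 on the log2 scale to 22.3 ± 0.884 CPM with panobinostat, against 2.72 ± 0.0208 CPM in vehicle. RARB, a retinoic acid receptor whose gene is itself a target of retinoic acid, rose by 2.08 ± 0.12 to 5.75 ± 0.302 CPM with panobinostat, against 1.36 ± 0.0655 CPM in vehicle. The receptor RARA rose by 1.19 ± 0.05 to 113 ± 3.12 CPM with panobinostat, against 49.5 ± 4.02 CPM in vehicle. RXRG, a retinoid X receptor, fell by 4.20 ± 0.07 to 3.43 ± 0.0348 CPM with panobinostat, against 63.2 ± 2.80 CPM in vehicle. DHRS3, which reduces retinaldehyde back to retinol, fell by 0.93 ± 0.04, and STRA6, a membrane transporter of retinol, by 0.83 ± 0.07. RDH10, which makes the retinaldehyde that the ALDH1A enzymes use, rose by 0.25 ± 0.06, and RDH11 and RXRA did not pass (log2 differences -0.09 and 0.07). DHRS9, CRABP1, CYP26A1 and CYP26C1 were below the count filter.

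Folate one-carbon genes, the surroundings of ALDH1L2, were mostly lower: of 19 tested, 13 fell and 4 rose. The shares were 68.4% and 21.1%, beside 41.0% and 41.8% of all genes tested, with a median log2 fold change of -0.45. With upper quartile scaling 10 fell (median -0.33), and GCSH, among the 13, lost its call in 9 of the 14 alternatives. MTHFD1L, the mitochondrial formyl-tetrahydrofolate synthetase, fell by 2.02 ± 0.06 to 21.7 ± 2.06 CPM with panobinostat, against 88.2 ± 1.54 CPM in vehicle. GLDC, which cleaves glycine in mitochondria, fell by 2.98 ± 0.07 to 4.47 ± 0.203 CPM with panobinostat, against 35.2 ± 0.554 CPM in vehicle. SHMT1, the cytosolic serine hydroxymethyltransferase, fell by 1.96 ± 0.05, and MTHFD2, a mitochondrial folate dehydrogenase, by 1.38 ± 0.05. MTHFD2L rose by 0.54 ± 0.10 and AMT, of glycine cleavage, by 0.69 ± 0.22, the last a call lost with DESeq2.

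Proline and glutamate genes, the surroundings of ALDH18A1, numbered 10 tested, of which 6 fell and 3 rose, with a median log2 fold change of -0.26. The shares were 60% and 30%, beside 41.0% and 41.8% of all genes tested. PYCR1, which makes proline from the product of ALDH18A1, fell by 1.13 ± 0.07 to 24.3 ± 2.08 CPM with panobinostat, against 53.2 ± 4.24 CPM in vehicle. PYCRL, which catalyses the same step, fell by 0.56 ± 0.08. OAT, which reaches the same intermediate from ornithine, fell by 0.10 ± 0.04, a call lost in 9 of the 14 alternatives, among them leaving out panobinostat replicate 1 (-0.11) or 3 (-0.09) or vehicle replicate 3 (-0.07), and turned to 0.016 with upper quartile scaling. GLUD1, which links glutamate to the citrate cycle, fell by 0.64 ± 0.04 and GLUL, glutamine synthetase, by 0.58 ± 0.07. ARG2, a mitochondrial arginase, rose by 0.78 ± 0.07. GLS2, a glutaminase, rose to 0.437 CPM with panobinostat, against 0.105 CPM in vehicle, which is under the count filter.

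Genes of fatty aldehyde and sphingosine phosphate metabolism, the surroundings of ALDH3A2, numbered 10 tested, of which 3 rose and 5 fell. These were 30% and 50%, beside 41.8% and 41.0% of all genes tested. Their median was -0.25, or 0.018 with the 5 CPM filter. SGPL1, the lyase whose fatty aldehyde product ALDH3A2 oxidises, rose by 0.13 ± 0.05 to 48.2 ± 0.99 CPM with panobinostat, against 44.1 ± 0.527 CPM in vehicle, a call lost in 5 of the 14 alternatives, among them no filter (0.08) and leaving out panobinostat replicate 2 (0.13) or 3 (0.11) or vehicle replicate 2 (0.11). SGPP1 rose by 0.89 ± 0.17 and AGPS, of ether lipid synthesis, by 0.25 ± 0.04. FAR2, which reduces fatty acyl-CoA to fatty alcohols, fell by 2.85 ± 0.09 to 2.86 ± 0.32 CPM with panobinostat, against 20.8 ± 0.612 CPM in vehicle. PHYH and HACL1, of fatty acid alpha-oxidation, fell by 0.83 ± 0.06 and 0.72 ± 0.05, and GNPAT and SPHK1 fell by 0.42 ± 0.04 and 0.63 ± 0.12.

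Other enzymes of alcohols, aldehydes and acetate numbered 18 tested, of which 8 rose and 8 fell, with a median of 0.06. Each share was 44.4%, near the 41.8% and 41.0% of all genes tested. AKR1A1, among those that fell, lost its call in 10 of the 14 alternatives. With the 5 CPM filter 5 of 13 rose and 7 fell, with a median of -0.24, and AKR1B10, which rose, had 0 counts in vehicle. AKR1B1, aldose reductase, which reduces aldehydes, rose by 1.47 ± 0.04 to 274 ± 6.74 CPM with panobinostat, against 98.6 ± 4.43 CPM in vehicle. CYP2E1 rose by 1.82 ± 0.15 to 5.47 ± 0.831 CPM with panobinostat, against 1.54 ± 0.217 CPM in vehicle. AKR1C3 rose by 1.41 ± 0.08 and AKR1C2 fell by 1.496 ± 0.07. AKR1C1 is a nearly identical copy of AKR1C2, so the split of reads between those copies is uncertain. CBR3, a carbonyl reductase, fell by 2.37 ± 0.10, ACSS1, which activates acetate in mitochondria, by 1.08 ± 0.08, and ADH5, which oxidises the glutathione adduct of formaldehyde, by 0.64 ± 0.04. ADH1A, ADH4, ADH6 and ADH7 had 0 counts in the 6 libraries.

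Lysine, choline and betaine genes, the surroundings of ALDH7A1, numbered 8 tested, of which 4 fell and 3 rose, with a median of -0.28. These were 50% and 37.5%, beside 41.0% and 41.8% of all genes tested. Of the 3 that rose, CRYM and SARDH had vehicle means under the count filter (0.277 CPM) and entered the test through their panobinostat levels. With the 5 CPM filter 5 genes were tested, of which 4 fell and 0 rose, with a median of -0.97. AASS, which opens lysine breakdown in mitochondria, fell by 1.07 ± 0.05 to 40.1 ± 2.02 CPM with panobinostat, against 84.1 ± 1.15 CPM in vehicle. AADAT and DHTKD1, which act after ALDH7A1 in that route, fell by 1.67 ± 0.07 and 1.08 ± 0.04, and PHYKPL fell by 0.43 ± 0.07. HYKK, hydroxylysine kinase, rose by 0.41 ± 0.10, CRYM, a ketimine reductase of lysine breakdown, rose to 2.45 CPM with panobinostat, against 0 in vehicle, and SARDH, sarcosine dehydrogenase, to 0.764 CPM with panobinostat, against 0.139 CPM in vehicle.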

How the data were processed

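The authors deposited 1 table of read counts per gene symbol, whole numbers with no normalization, and sample titles gave the columns their samples. STAR is named only in the name of that table. Aligner version, genome build, gene models, kit and strandedness: not given in the sources used here. Of 25435 lines, 92 spike-in controls with 0 counts were left out, and 28 lines with symbols turned into dates stayed in the fit unnamed. After filterByExpr and TMM scaling, groups were compared by edgeR's quasi-likelihood test with no covariate (estimateDisp, glmQLFit with robust = TRUE). CPM use TMM-scaled library sizes. Software was R 4.3.3, edgeR 4.0.16, limma 3.58.1, DESeq2 1.42.0 and Python 3.11.15. The fits were run on simulated data in which far fewer genes changed than were called here. That run therefore does not test the scaling under so broad a change. No 2 libraries were identical, and pairs within a group differed by more than sampling noise (chi-square per degree of freedom 1.90 to 9.14). Locations and lengths are from GENCODE 29, which was not matched to the authors' annotation. Alternatives were other scalings, filters and tools, a replicate block and leaving out each library. The members and the gene lists were chosen with earlier results of these data known. Named are all members, all other family genes and, per list, up to 3 called genes in each direction with the largest change among those at 5 CPM or more in a group. Some list genes that enter the counts are not reported here by name. RDH10, RDH11, RXRA, SHMT1, MTHFD2, AMT, PYCRL, OAT, GLS2, GNPAT, SPHK1, ADH5, PHYKPL, CRYM, SARDH, RDH12, SDR16C5, AKR1B10, AKR1C1 and the genes given as not detected were added after their values were seen. So were RDH13, RXRB, GCSH, AKR1A1, TYRP1, DCT and the single leukocyte, endothelial, epithelial and hepatocyte markers named.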

Additional observations from a re-analysis of the deposited data

How the results depend on the processing

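The falls of ALDH1A3, ALDH1L2, ALDH3B1, ALDH18A1 and ALDH1B1 passed in the reported fit and in all 14 alternatives, with log2 ranges of -3.17 to -3.00, -2.03 to -1.86, -1.29 to -1.07, -0.82 to -0.65 and -0.31 to -0.14. ALDH2 passed as higher with upper quartile scaling (0.19) and the 5 CPM filter (0.16), ALDH3A2 with RLE scaling (0.11), library size alone (0.11), upper quartile scaling (0.21) and the 5 CPM filter (0.19), and ALDH7A1 with upper quartile scaling (0.13) and the 5 CPM filter (0.11). Upper quartile scaling moved the median of all genes by 0.12. The 5 CPM filter, with scaling recomputed on the genes kept, raised all 8 tested genes, ALDH1A3 from -3.12 to -3.03 and ALDH18A1 from -0.77 to -0.68. The higher calls under it are therefore not separate from that shared shift. ALDH7A1 turned to -0.033 with no filter and ranged from -0.018 to 0.021 when single libraries were left out. The 10 genes then held 1 higher call with RLE scaling, 1 with library size alone, 3 with upper quartile scaling, 3 with the 5 CPM filter, 2 with no filter (ALDH1A1 and ALDH1A2), and 0 to 1 with a library left out. The 1 was ALDH1A1, which entered the test without panobinostat replicate 1 (1.89) or vehicle replicate 2 (2.22). Higher calls among the other family genes were 3 with no filter and 1 to 2 with a library left out, where ALDH8A1 entered the test. With the 5 CPM filter, which tests fewer genes, 3 retinoid genes fell, 5 alcohol and aldehyde genes rose and 0 lysine and choline genes rose. Same-numbered libraries did not deviate together (correlations -0.14 to -0.06). Deviations from means of 3 libraries cannot settle whether the numbers pair them. With the replicate block the same counts of 5 lower and 0 higher were found, with ALDH1A3 at -3.12. OAT, SGPL1, RDH13, RXRB, GCSH and AKR1A1 no longer passed with the block. Depth limits ALDH1A1 and ALDH1A2.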
